A study of Mus musculus with 4 samples.

Results

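The replication-dependent histone genes supply the bulk of the histones that package newly copied DNA. All genes whose symbol begins with Hist1h, Hist2h, Hist3h or Hist4h were taken, which gave 64 of the 21495 genes in the count table. They comprise 6 genes for the linker histone H1, 17 for H2A, 16 for H2B, 12 for H3 and 13 for H4. Of the 64, 52 lie in the histone cluster on chromosome 13, 9 on chromosome 3, 2 on chromosome 11 and 1 on chromosome 6. The set was chosen on earlier results of the same data, because genes of the chromosome 13 cluster were higher in the XX control than in the XY control. That difference is therefore only described below.

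Cells came from mouse gonads with the attached mesonephros, the embryonic kidney, labelled as C57BL/6 x 129S4/SvJae. The study's methods give that background for other mice, from which these cells did not come. For the embryos profiled here they give hybrids of C57BL/6J and 129, without a substrain of 129. The XY control at E11.5 was made by aggregation of unedited G4 embryonic stem cells with tetraploid embryos, in which the embryo proper derives from the stem cells. The XY KO at E11.5 and the XY KO at E11.75 came from the same line after CRISPR deletion of both copies of the miR-17~92 microRNA cluster. The XX control at E11.5 came from natural crosses and carried no deletion. Each group was 1 sample that pooled gonads of more than 1 embryo. Without replicates no test was possible, and no p-value is given. Every interval below is a 95% interval that covers counting error only. A difference may still lie within the spread between embryos, which was not measured.

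In cycling cells these genes are transcribed as DNA replication begins, under the coactivator NPAT, and their mRNA is destroyed when replication ends. The mRNA is not polyadenylated. It ends shortly after a conserved stem-loop, which is bound by the stem-loop binding protein SLBP and sets the cleavage site. Some members also give polyadenylated mRNA with a longer 3′ UTR, which can be made outside S phase. The libraries were primed on poly(A), so that only polyadenylated or A-rich histone RNA is expected among the unique molecular identifiers (UMIs) counted here. Which of these forms gave the UMIs was not tested.

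The XY control had 23527 cells, the XY KO 17057 at E11.5 and 8492 at E11.75, and the XX control 3669. The median UMI count per cell was 3893, 4763, 3922 and 15509 in the same order, so that XX cells were by far the deepest. Per the study's methods each genotype had 2 technical replicates, but the XY KO at E11.75 only 1. They are called runs below and numbered as in the cell names, and no label pairs them across samples. Any pair of samples shared at most 0.954% of the cell barcodes of the smaller one. Xist reached 826 CPM (counts per 1e+06 UMIs of all genes) in the XX control and at most 0.449 CPM in XY samples. The host transcript of the deleted microRNAs, Mir17hg, read 156 and 161 CPM in the KO samples and 19.8 and 18.2 CPM in the controls. Its counted 3′ end does not measure the deleted part. The deposited cell type names were kept, and 34 of 35 markers fixed for 11 of the 13 types were above the median of all types in their own type and 26 were highest there. None of the 3 markers of coelomic epithelium was highest in it, and 1 of 2 of supporting-like cells was above the median.

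The stem-loop is shown first because it defines the family. It was read from the GENCODE M21 transcripts of mm10 within 150 bases after the stop codon, as a stem of 6 base pairs around a loop of 4 bases. For each gene only the coding transcript with the longest 3′ UTR was used. An element in another transcript of the gene would thus be missed. A match was found in 44 of the 64 members, 21 to 58 bases after the stop codon. There were 8 different versions, of which the 3 most frequent are given with the stem in capitals, 5′ to 3′ as DNA.
24 members of H1, H2A, H2B and H3, among them Hist1h2ae, Hist1h1e, Hist1h1c, Hist3h2a and Hist3h2ba: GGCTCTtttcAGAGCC
7 members, all H4, among them Hist1h4d: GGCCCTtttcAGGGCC
6 members of H1, H2B and H3, among them Hist1h3c: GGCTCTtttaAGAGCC
The H4 stem printed differs from the other in a single base pair, and the loops printed differ in their last base. In Hist3h2a, for example, the element lies at chr11:58955172-58955187 on the plus strand, inside the 3′ UTR. In 20 members no match was found, and 12 annotated transcripts stop at the stop codon itself, so that the element could not be read there.

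Members were grouped by how far the annotated transcript runs past the stem-loop. In 23 members the annotation continues for more than 100 bases beyond it, in 21 it ends near it. Members with an extended annotation gave 45.8% of all histone UMIs and included 9 of the 15 members with the most UMIs. Members ending near the stem-loop gave 15.1% and included 3 of the 15. The 20 members with no match gave 39.0% and also included 3 of the 15, among them Hist1h1b. The median over members was nevertheless close, with 601 UMIs for extended and 598 UMIs for short annotations, and it was 272 UMIs for members with no match. A-rich sequence and length were looked at as well: across the 64 members, UMIs and the largest number of A in any 20 bases of the annotated transcript had a Spearman correlation of 0.35, UMIs and transcript length one of 0.37, and UMIs and the percentage of sequence stretches shared with other members one of -0.34. These are descriptions over genes that share sequence, and a longer transcript holds more such windows. Hist1h2ap, at 6374 UMIs the most counted member whose annotation ends near the stem-loop, holds 16 A in such a window at bases 444 to 463 of its transcript: ccgAAAAgAAAAAAAAAAAA, with A in capitals. Hist1h2ao holds the same 20 bases and had 114 UMIs. In Hist1h1b, the most counted member of all, the A-richest window lies in the coding sequence at bases 132 to 151 and holds 14: AAgAAgAAgAcAAcgAAAAA.

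Many members are near-identical in sequence, which limits how reads can be assigned between them. Of the 64 annotated transcripts, 55 shared at least 1 stretch of 90 bases with another member, and in 22 more than 50% of all such stretches were shared. Hist1h1b, Hist1h1a and Hist3h2ba shared none, and Hist3h2a, Hist1h4d and Hist1h1d 1.06% or less. By contrast, Hist1h2ap shared 92.4% of its stretches with other members, Hist1h2ag 76.8% and Hist1h3e 50.2%, so that values of these 3 genes are uncertain as to the gene. How reads that fit several members were counted was not examined, so that sums over members may be affected as well.

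The promoters of H1 genes are shown because this class holds the most counted member and because Hist1h1c differed from its relatives in the values below. In RefSeq (GRCm38.p6) a start within 100 bases of the annotated gene start was found for 58 members, and the 250 bases before it were searched on both strands. The H1 box, AAACACA, was present in 4 of 5 matched H1 promoters, against 6.25% of all 32851 promoters. The CCAAT box, CCAAT, was present in all 5 and in 81.0% of the 58 members, against 33.9% of all promoters. The octamer, ATTTGCAT, was found in 12 of the 58, all of them H2A or H2B genes, against 1.60% of all promoters. The 140 bases before the start of 4 H1 genes follow, on the strand of the gene, with H1 box and CCAAT box in capitals.
Hist1h1b, chr13:21780626-21780765, minus strand: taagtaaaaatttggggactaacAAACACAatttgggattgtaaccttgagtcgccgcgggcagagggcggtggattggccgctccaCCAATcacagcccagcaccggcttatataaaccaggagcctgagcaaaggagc
Hist1h1e, chr13:23622559-23622698, minus strand: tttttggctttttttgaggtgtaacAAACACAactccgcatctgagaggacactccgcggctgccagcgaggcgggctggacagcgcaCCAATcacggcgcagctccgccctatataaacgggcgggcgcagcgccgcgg
Hist1h1c, chr13:23738667-23738806, plus strand: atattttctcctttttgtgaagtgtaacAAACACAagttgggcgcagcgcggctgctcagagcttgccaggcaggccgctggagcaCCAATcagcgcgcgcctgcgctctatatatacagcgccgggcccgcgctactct
Hist1h1a, chr13:23763528-23763667, plus strand: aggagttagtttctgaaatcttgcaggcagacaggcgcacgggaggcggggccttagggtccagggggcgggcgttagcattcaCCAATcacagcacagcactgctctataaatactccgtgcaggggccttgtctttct
The H1 box began 117 bases before the start in Hist1h1b, 115 in Hist1h1e and 112 in Hist1h1c, and the CCAAT box 53, 52 and 54 bases before it. Hist1h1a held the CCAAT box at 56 bases and no H1 box with these letters.

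All 64 members had at least 5 UMIs over the 4 samples, and 58 had 100 or more, for 166000 UMIs in total. The counts were uneven. Hist1h1b alone gave 26.3% of all histone UMIs, the 5 most counted members 55.5% and the 15 most counted 84.8%. A UMI stands for a molecule whatever its length. Levels can thus be set side by side between genes only as far as 3′ ends are captured alike and reads are assigned alike. Sharing of sequence differed by class. The median percentage of sequence stretches shared with other members was 0.53% for H1, 53.6% for H2A, 30.2% for H2B, 45.5% for H3 and 20.9% for H4. The part of read assignment in the order of genes and classes by level was not tested. Summed over members, the level was 497 CPM in the XY control (interval 493 to 501), 535 in the XY KO at E11.5 (530 to 540), 394 in the XY KO at E11.75 (388 to 401) and 743 in the XX control (737 to 750). Separate runs gave 520 and 470 CPM in the XY control and 534 and 536 in the XY KO at E11.5. In the XX control they gave 714 and 771 CPM. The difference between the XY KO at E11.5 and the XY control was thus smaller than that between both runs of the control, whereas the KO at E11.75 lay below and the XX control above all other runs.

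Linker histones led the table. Hist1h1b encodes H1.5 and read 114 CPM in the XY control (112 to 116), 133 in the XY KO at E11.5 (130 to 135), 77.7 in the XY KO at E11.75 (74.9 to 80.6) and 246 in the XX control (242 to 250). The 4 samples were thus all separate, with the XX control highest and the older KO lowest. Hist1h1e, for H1.4, read 21.7, 23.0, 27.4 and 46.1 CPM in the same order, and here the KO at E11.75 was not the lowest sample. Hist1h1a read 12.1, 12.7, 12.9 and 24.8 CPM and Hist1h1d 5.57, 6.02, 6.37 and 10.96 CPM. The 3 XY samples had overlapping intervals in both, below the XX control. Hist1h1c, for H1.2, differed from its 4 relatives, at 19.3, 18.3, 16.6 and 19.97 CPM with little separation between samples.

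Among core histones Hist1h2ae, an H2A gene, was the most counted, at 70.4 CPM in the XY control (68.8 to 72.0), 64.8 in the XY KO at E11.5 (63.1 to 66.4), 49.2 in the XY KO at E11.75 (46.9 to 51.4) and 80.4 in the XX control (78.3 to 82.6). Hist1h4i, an H4 gene, read 34.6, 29.3, 20.4 and 37.6 CPM, and Hist1h2bc, an H2B gene, 33.6, 31.6, 20.3 and 38.4 CPM, with the KO at E11.75 lowest in each. Another pattern was seen in Hist1h3c, at 12.2, 18.9, 13.4 and 22.5 CPM, and in Hist1h3e, at 5.10, 8.73, 4.57 and 9.92 CPM, where the XY KO at E11.5 lay nearer to the XX control than to the XY control. Hist1h2ag read 6.45, 9.64, 4.12 and 7.98 CPM and was highest in the XY KO at E11.5. Hist1h4d read 11.46, 16.1, 15.2 and 21.8 CPM. Hist1h2ap had its highest value in the XY control, at 26.3 CPM against 19.2, 17.1 and 18.0. The pair on chromosome 11 differed little between samples at E11.5. Hist3h2a read 26.9, 25.1, 25.9 and 29.2 CPM and Hist3h2ba 26.5, 28.6, 16.8 and 26.2 CPM.

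**Figure D1:**
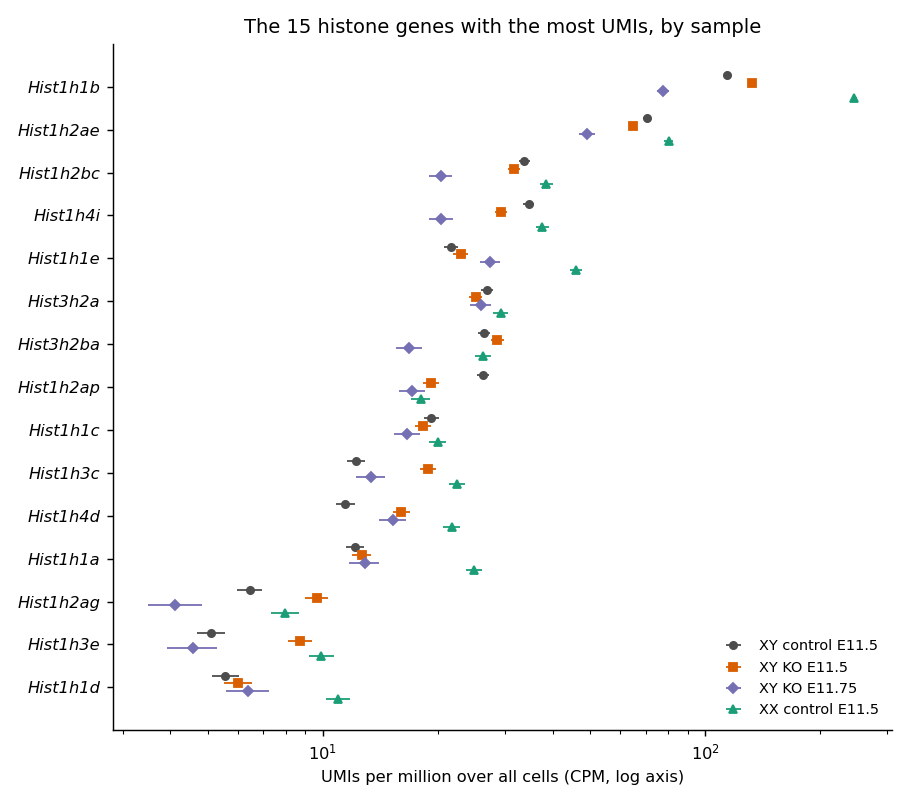
CPM over all cells (log axis) of the 15 histone genes with the most UMIs, with 1 point per sample and bars for the 95% Poisson interval of the count. Hist1h1b lies between 77.7 and 246 CPM, and the XX control is the highest sample in Hist1h1b, Hist1h1e, Hist1h1a and Hist1h1d but not in Hist1h2ap.

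By class, H1 members summed to 173, 193, 141 and 348 CPM in the XY control, the XY KO at E11.5, the XY KO at E11.75 and the XX control. H2A members summed to 148, 141, 115 and 165 CPM and H2B members to 86.7, 93.5, 61.4 and 103 CPM. H4 members gave 56.7, 58.2, 46.4 and 72.7 CPM. H3 members gave 32.5, 49.4, 30.7 and 54.5 CPM, so that as a ratio H3 was the class in which the XY KO at E11.5 stood farthest above the XY control. By position, the cluster on chromosome 13 gave 429, 464, 334 and 668 CPM, and the members on chromosome 3 gave 13.2, 15.6, 16.3 and 18.3 CPM.

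The summed level differed between cell types. Coelomic epithelium, mesonephric epithelium and mesonephros were among the first 4 types in each sample, whereas immune cells and germ cells changed rank between samples. In the XY control immune cells were highest, at 1016 CPM. Behind them the level was 633 CPM in coelomic epithelium (618 to 648), 603 in mesonephric epithelium (583 to 622) and 553 in mesonephros (546 to 560), the most numerous type. It fell off to 401 CPM in pre-supporting cells (387 to 415), the bipotential cells that become Sertoli or granulosa cells, 367 in endothelium (351 to 383), 308 in Sertoli cells (292 to 326) and 288 in germ cells (276 to 301). Coelomic and mesonephric epithelium could not be separated by their intervals, and neither could the last 2 types. In the XY KO at E11.5 pre-supporting cells read 377 CPM (362 to 393) and coelomic epithelium 633 (618 to 649), in the XY KO at E11.75 272 (257 to 288) and 524 (502 to 545), and in the XX control 552 (534 to 570) and 942 (915 to 970). Epithelial and mesonephric types were therefore above pre-supporting cells in all 4 samples.

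The order of cell types by histone level was not their order by other S phase genes. Germ cells had the highest level of a list of 39 S phase genes in each sample, 4529, 4467, 5078 and 4227 CPM, and of 52 G2/M genes, 10122, 9340, 10734 and 9512 CPM. Their histone level was 288, 291, 334 and 521 CPM, the lowest of all types with at least 20 cells in 3 samples and the sixth of 12 in the XY KO at E11.75. In those 3 samples their interval overlapped that of the next type. That type was Sertoli cells in the XY control and the XY KO at E11.5 and endothelium in the XX control. Pre-supporting cells were low on both counts, at 1591, 1588, 1656 and 1410 CPM of the S phase list. Germ cells were also the deepest cells, with a median of 11990 UMIs in the XY control and 40644 in the XX control.

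Immune cells read highest in the XY control when all cells were taken. Their summed level was 1016 CPM there (936 to 1102, 220 cells), 508 in the XY KO at E11.5 (451 to 571, 73 cells), 476 in the XY KO at E11.75 (391 to 574, 38 cells) and 740 in the XX control (698 to 783, 74 cells). Both runs of the XY control gave it, at 1037 and 1000 CPM. Immune cells of the XY control were shallow, with a median of 1488 UMIs against 5770 to 18870 in the other samples. In cells with 3000 to 10000 UMIs the level was 1284 CPM in the XY control (41 cells), 400 in the XY KO at E11.5 (45 cells), 509 in the XY KO at E11.75 (26 cells) and 1706 in the XX control (8 cells). The intervals of the XX control, 1311 to 2183 CPM, and of the XY control, 1138 to 1445 CPM, overlapped there. Among the members, Hist1h1c read 199 CPM in immune cells of the XY control (165 to 239), 110 in the XY KO at E11.5 (84.5 to 141), 34.9 in the XY KO at E11.75 (15.1 to 68.9) and 48.1 in the XX control (38.0 to 60.2). Hist1h2bc read 175, 69.3, 65.5 and 58.8 CPM in the same cells. Hist1h1c was highest in immune cells among all types in each of the 4 samples, although in the XY KO at E11.75 the interval also held the next type, coelomic epithelium at 22.4 CPM.

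**Figure D2:**
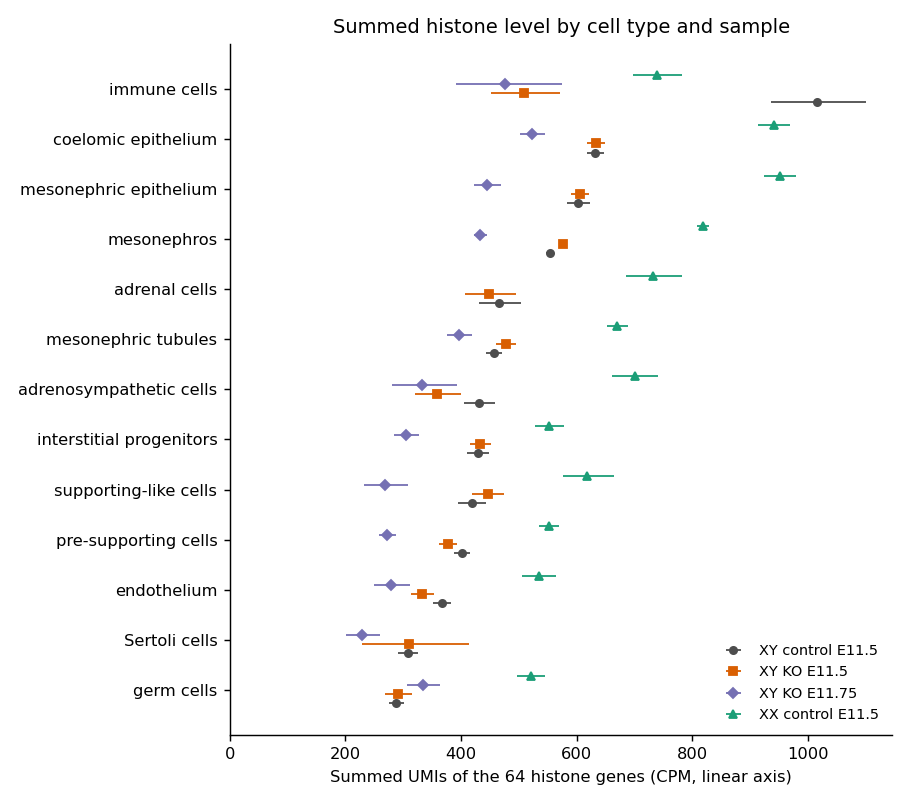
Summed level of the 64 histone genes (CPM) in each cell type with at least 20 cells, with 1 point per sample and bars for the 95% Poisson interval. Coelomic and mesonephric epithelium lie above pre-supporting cells in every sample. Germ cells are lowest in all but the XY KO at E11.75, with an interval that overlaps that of the next type. The XX control is the highest sample in 11 of its 12 types, with immune cells as the exception, where the XY control reads 1016 CPM (the XX control has no point in Sertoli cells).

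Single members departed from the order of cell types by the sum. Hist3h2a, an H2A gene, was highest in supporting-like cells, at 44.9 CPM in the XY control (37.4 to 53.4), 49.4 in the XY KO at E11.5 (40.6 to 59.6), 54.7 in the XY KO at E11.75 (39.3 to 74.2) and 51.6 in the XX control (39.8 to 65.9). Supporting-like cells give rise to the rete testis and rete ovarii. The same gene was lowest in germ cells, at 5.02, 4.40, 5.13 and 6.92 CPM, so that germ cells were outside the interval of supporting-like cells in every sample. In pre-supporting cells it read 38.2, 41.6, 32.2 and 49.99 CPM. In the XY KO at E11.75 this was below the interval of supporting-like cells, and in the other samples inside it. Hist3h2ba, its neighbour for H2B, was highest in mesonephric tubules in XY samples, at 67.0, 71.8 and 35.8 CPM, the last of which did not differ from mesonephric epithelium at 35.1 CPM beyond their intervals. In the XX control tubules read 51.6 CPM and adrenosympathetic cells 52.9 CPM, which did not differ beyond their intervals. Germ cells had 4.87, 4.89, 1.93 and 5.54 CPM of Hist3h2ba.

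To follow the cell cycle, cells were cut down by random draws to 3000 UMIs apiece, which left out 6279 shallower cells of the XY control, 1817 and 2425 of the XY KO at E11.5 and E11.75 and 67 of the XX control. Cells were then divided into 3 ranges by their UMIs of the 39 S phase genes, at most 4, 5 to 8, and over 8. From the low to the high range the histone level went from 447 to 576 CPM in the XY control, from 495 to 649 in the XY KO at E11.5, from 330 to 518 in the XY KO at E11.75 and from 651 to 975 in the XX control. On the log2 scale the high range was above the low one by 0.36 (0.32 to 0.41), 0.39 (0.35 to 0.43), 0.65 (0.57 to 0.73) and 0.58 (0.51 to 0.66). Thinning to 2000 or 5000 UMIs moved these differences to 0.27 to 0.46 and 0.59 to 0.80. In mesonephros alone they were 0.37, 0.34, 0.55 and 0.48. Of pre-supporting cells 26 to 153 per sample were in the high range. There the level went from 410 to 436 CPM in the XY control and from 404 to 361 in the XY KO at E11.5. It went from 271 to 299 in the XY KO at E11.75 and from 554 to 795 in the XX control. The intervals of low and high range overlapped in each XY sample, at 374 to 436 and 291 to 443 CPM in the XY KO at E11.5. In the XX control they were 499 to 614 and 609 to 1019 CPM.

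Ranges were formed in the same way from the 52 G2/M genes, at most 8, 9 to 18, and over 18 UMIs. From the low to the high range of G2/M genes it went from 389 to 647 CPM in the XY control, from 423 to 722 in the XY KO at E11.5, from 281 to 609 in the XY KO at E11.75 and from 586 to 1047 in the XX control. The log2 differences were 0.74, 0.77, 1.12 and 0.84, which cannot be set against those of the S phase list, since list size and limits differ. The samples held like shares of cells in the high S phase range, 33.2%, 29.0%, 29.5% and 32.7%.

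**Figure D3:**
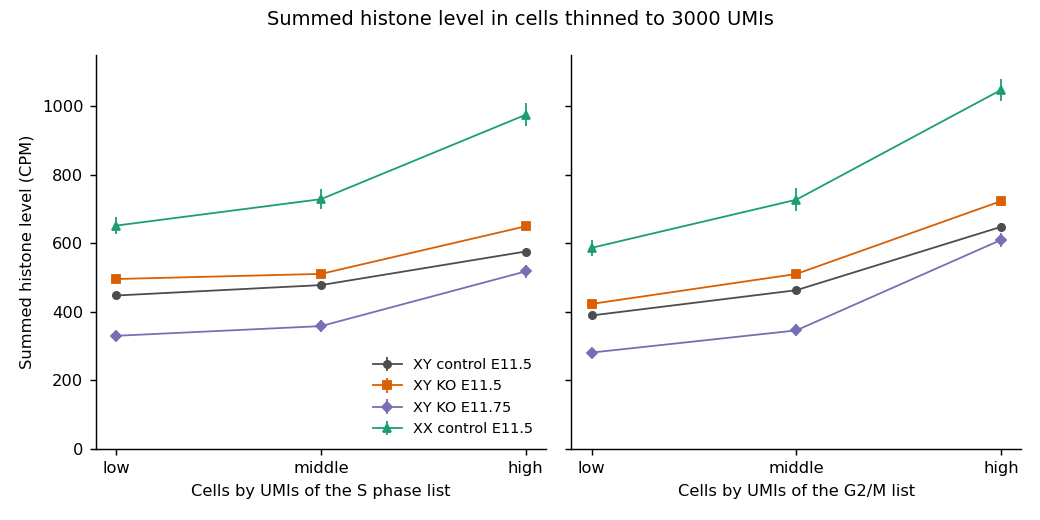
Summed histone level (CPM) in cells thinned to 3000 UMIs, divided into 3 ranges by UMIs of the S phase list (left) or of the G2/M list (right), with 1 line per sample and bars for the 95% Poisson interval. Every line is higher at the right end than at the left, and the XX control lies above the other samples in each range, from 651 to 975 CPM by S phase genes.

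The measured members did not all go the same way as the sum. There were 13 members with at least 100 thinned UMIs in every sample, and 9 of them were higher in the high than in the low S phase range in all 4 samples, while the other 4 were lower in all 4. Of 9360 genes outside the S phase list with as many thinned UMIs, members included, 27.8% were higher and 35.1% lower in all 4 samples. Lower members, 4 of 13, were thus no more frequent than lower genes in general. By the mean over the 4 samples the highest was Hist1h2ap, whose reads are uncertain as to the gene, with log2 differences of 0.94 (0.74 to 1.14) in the XY control, 0.92 (0.69 to 1.15) in the XY KO at E11.5, 1.55 (1.17 to 1.96) in the XY KO at E11.75, whereas the XX control had 0.59 (0.08 to 1.11). In the XX control it was below most of the 9. Hist1h4i gave 0.79, 0.99, 0.92 and 0.91, and Hist1h1a 0.75, 0.69, 1.11 and 0.93. Hist1h1b gave 0.64, 0.66, 1.06 and 0.90, which shows the size of the S phase difference for the most counted member. Members at least 2-fold higher in the high range numbered 5 of 13 in the XY KO at E11.75, where 2.93% of the 9360 genes were, and 0 in the XY control, the XY KO at E11.5 and the XX control, where 2.37%, 2.09% and 3% were. These 5 passed 2-fold in 1 of 4 samples, and thinning to 2000 UMIs gave 2 of 12 there.

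By the mean over samples the lowest was Hist1h2bc, an H2B gene, with log2 differences of -0.97 (-1.15 to -0.78), -1.38 (-1.61 to -1.17), -1.57 (-2.06 to -1.13) and -1.30 (-1.71 to -0.92). All 4 intervals lay below 0. Hist3h2a gave -0.87, -0.99, -1.18 and -0.90, and Hist3h2ba -1.06, -0.95, -0.75 and -0.97, the lowest member in the XY control. In Hist1h1c the difference was small, at -0.36, -0.32, -0.36 and -0.15, and the last 2 intervals held 0. Within mesonephros alone Hist1h2bc gave -1.15, -1.66, -1.92 and -1.79 and Hist3h2a -1.01, -0.99, -0.77 and -0.64 (S phase range), so both were lower inside a single cell type too. Hist1h1c gave -0.40, -0.29, -0.38 and 0.06 in mesonephros, and all intervals but the first held 0. Hist1h2bc and Hist1h1c were nevertheless higher in the high G2/M range, by 0.21, 0.45, 0.56 and 0.28 and by 0.84, 0.77, 1.21 and 0.83, with an interval that held 0 for Hist1h2bc in the XX control. Hist3h2a and Hist3h2ba were lower there too, at -0.51, -0.58, -0.50 and -0.50 and at -0.66, -0.40, -0.29 and -0.68, with an interval that held 0 for Hist3h2ba in the XY KO at E11.75.

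Both measured members whose annotation ends near the stem-loop, Hist1h3c and Hist1h2ap, were higher in the high S phase range, with means over samples of 0.83 and 0.999. The 8 whose annotation is extended had a median of 0.58 (-0.98 to 0.90) and the 3 without a match a median of 0.82 (-1.31 to 0.87). Hist3h2a, Hist3h2ba and Hist1h1c carry the same stem-loop letters as Hist1h2ae and Hist1h1e, and all 5 have an annotation that runs past it, by 1643, 169, 840, 151 and 1153 bases. The first 3 were lower and the last 2 higher in cells rich in S phase mRNA. The transcript used for Hist1h2bc has a 3′ UTR of 742 bases, with no match to the stem-loop within 150 bases of the stop codon. Whether another transcript of Hist1h2bc holds the element was not examined.

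**Figure D4:**
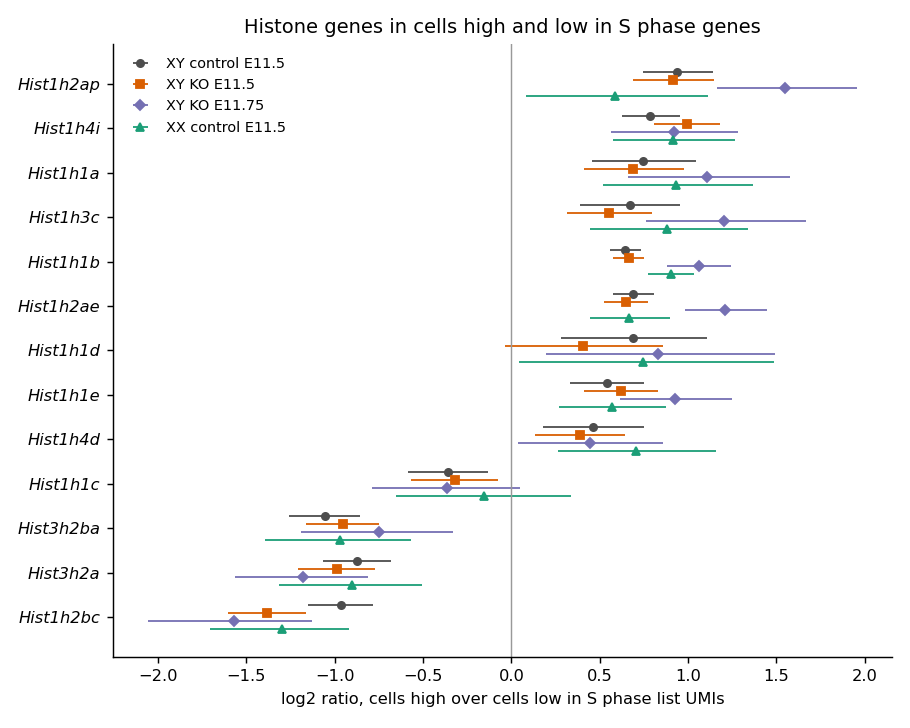
Log2 ratio of the level in cells high over cells low in S phase list UMIs for the 13 histone genes with at least 100 thinned UMIs in every sample, with 1 point per sample and bars for the 95% interval. The 9 upper genes lie right of 0 in every sample and the 4 lower ones, Hist1h1c, Hist3h2ba, Hist3h2a and Hist1h2bc, left of 0, with Hist1h2bc between -0.97 and -1.57.

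Loss of miR-17~92 at E11.5 was examined next, in the cells in which sex is decided and in the most numerous type. In pre-supporting cells the summed level was 377 CPM in the XY KO and 401 in the XY control, a log2 difference of -0.09 (-0.17 to -0.01) that vanished with TMM factors in place of totals (-0.00030). Members with at least 100 UMIs over both samples numbered 12, and none was 2-fold higher or lower. Of all 9725 genes measured alike, 0.74% were 2-fold higher and 2.24% lower. The largest differences were those of Hist1h2ap, at 11.9 against 20.04 CPM (-0.74, interval -1.17 to -0.34), of Hist1h4i, at 16.8 against 27.0 CPM (-0.69, -1.05 to -0.34), and of Hist1h3c, at 9.62 against 5.96 CPM (0.68, 0.11 to 1.28). Hist1h1b was alike at 87.9 and 80.4 CPM. In mesonephros the sums were 576 and 553 CPM (0.06, 0.03 to 0.08), with -0.02 between first and 0.16 between second runs.

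In mesonephros 38 members were measured, and 2 were 2-fold higher and 0 lower in the XY KO at E11.5, against 0.465% and 1.12% of all 13111 genes. Both were H3 genes, which the naming rule did not cover and which are named after their values were seen. Hist1h3i read 5.82 against 2.03 CPM (1.51, 1.16 to 1.88) and Hist1h3a 6.74 against 3.20 CPM (1.07, 0.78 to 1.38). Hist1h3i shares 72.7% of its 90-base stretches with other members, so which H3 gene it reflects is uncertain. With 253 against 87 UMIs it also reached the minimum of 100 through the KO sample. As a class, H3 members summed to 56.3 against 35.5 CPM (0.67, 0.57 to 0.76), H2A members to 150 against 170 CPM (-0.18, -0.23 to -0.14) and H1 members to 211 against 197 CPM (0.10, 0.06 to 0.15). In pre-supporting cells H3 members summed to 27.7 against 20.4 CPM (0.44, 0.12 to 0.76).

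Between the XY KO samples at E11.75 and E11.5 the members were mostly lower at the later stage, in a comparison that uses neither control. Sums were 272 against 377 CPM in pre-supporting cells (-0.47, -0.57 to -0.37) and 434 against 576 CPM in mesonephros (-0.41, -0.45 to -0.37). The median of all measured genes lay on the other side, at 0.28 and 0.25, so that relative to it the members were lower still. Of 12 cell types with at least 20 cells in both samples, 11 had a lower sum at E11.75, 8 of them with an interval below 0. Supporting-like cells differed most, at 268 against 446 CPM (-0.73, -0.96 to -0.51), and germ cells alone were higher, at 334 against 291 CPM (0.20, 0.03 to 0.37).

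Gene by gene, 10 members were measured in pre-supporting cells, of which 1 was 2-fold lower and 0 higher, against 0.957% and 5.83% of all 9297 genes. That member was Hist1h2bc, at 12.9 against 29.0 CPM (59 and 175 UMIs, -1.17, -1.63 to -0.74). In mesonephros 33 members were measured, with 8 lower and 0 higher, against 1.31% and 5.77% of all 12422 genes, and only 3 of the 33 lay above the median gene. All 8 reached the minimum through the E11.5 sample, where they had 101 to 468 UMIs against 10 to 69 at E11.75. That sample also had more mesonephros UMIs of all genes, 43486834 against 14481278. The count of these members is a description only. Named after their values were seen, the lowest were Hist1h2bk, at 1.10 against 4.65 CPM (16 and 202 UMIs, -2.05, -2.91 to -1.34), and Hist1h2bh, at 0.691 against 2.74 CPM (10 and 119 UMIs, -1.96, -3.08 to -1.06), both H2B genes. Hist1h2bk shares 71.6% of its 90-base stretches with other members, so its values are uncertain as to the gene. Among the 15 most counted members Hist1h3e (4.35 against 9.89 CPM, -1.18) and Hist1h2ag (4.76 against 10.8 CPM, -1.17) were beyond 2-fold. Hist1h1b read 88.0 against 146 CPM (-0.73, -0.82 to -0.64). The decrease was not shared by all H1 genes: Hist1h1e read 31.1 against 25.7 CPM (0.28, 0.11 to 0.43), close to the median gene, and Hist1h1c 21.1 against 18.4 CPM (0.20, 0.01 to 0.39). In pre-supporting cells Hist1h1c was on the other side, at 9.37 against 17.6 CPM (-0.90, -1.45 to -0.38).

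**Figure D5:**
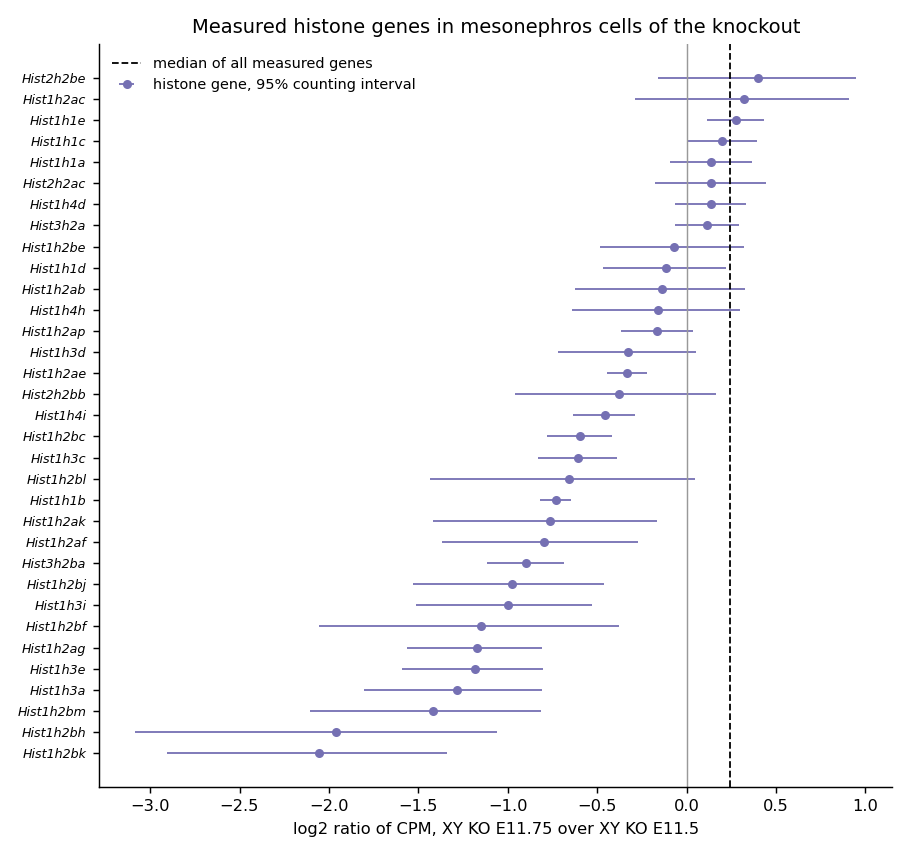
Log2 ratio of CPM in mesonephros cells, XY KO E11.75 over XY KO E11.5, for the 33 histone genes measured there (100 or more UMIs in both samples together), with bars for the 95% interval, a grey line at 0 and a dashed line at the median of all measured genes, 0.25. All but 3 genes lie left of the dashed line, and Hist1h2bk and Hist1h2bh lie farthest left.

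The share of thinned cells in each range also differed between the KO stages. The high S phase range held 29.5% at E11.75 and 29.0% at E11.5, and the low one 41.8% and 38.6%. By G2/M genes the high range held 29.6% at E11.75 and 32.3% at E11.5, and the low one 46.6% and 38.8%. The part of these shares in the lower histone level was not tested. At the same range of S phase genes the older sample was lower by -0.59 (-0.65 to -0.52) in the low, -0.51 (-0.59 to -0.44) in the middle and -0.33 (-0.39 to -0.26) in the high range. Genes of red blood cells were higher there, since 6 erythroid markers summed to 612 CPM in mesonephros at E11.75 against 301 at E11.5 (467 against 261 in pre-supporting cells). The mitochondrial share was 5.64% against 4.52%. The part of either in the result was not tested. The E11.75 library was also a single run, so library and stage cannot be told apart.

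Against the XY control, which was of the earlier stage, so that stage and deletion cannot be told apart, the XY KO at E11.75 was lower as well. Sums gave -0.56 (-0.65 to -0.46) in pre-supporting cells and -0.35 (-0.39 to -0.31) in mesonephros. In pre-supporting cells 10 members were measured, of which 4 were 2-fold lower and 0 higher, against 1.7% and 3.75% of all 9742 genes. These were Hist1h2bc, at 12.9 against 41.2 CPM (-1.67, -2.11 to -1.28), Hist1h1c, at 9.37 against 21.7 CPM (-1.20, -1.73 to -0.72), Hist1h2ap, at 9.15 against 20.04 CPM (-1.12, -1.66 to -0.63), and Hist1h4i, at 13.1 against 27.0 CPM (-1.04, -1.49 to -0.63). They had 42 to 60 UMIs at E11.75 and 158 to 325 in the XY control, through which they reached the minimum. Hist1h1e and Hist1h4d had intervals that held 0. In mesonephros 31 members were measured, with 2 lower and 0 higher, against 1.32% and 3.21% of all 12545 genes. Both are H2B genes named after their values were seen, Hist1h2bk (16 and 127 UMIs) and Hist1h2bf (15 and 95 UMIs). Both reached the minimum mainly through the XY control, so that their count is a description only. They share 71.6% and 50.8% of their 90-base stretches with other members and are uncertain as to the gene.

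The XX control over the XY control is the contrast on which the members were chosen, and its values are given without reading anything from them. The XX control shares the XY control with the comparisons above. Sums were 552 against 401 CPM in pre-supporting cells (0.46, 0.39 to 0.53) and 819 against 553 CPM in mesonephros (0.57, 0.54 to 0.59). Of the 12 members measured in pre-supporting cells 0 were 2-fold higher or lower, where 0.47% and 1.64% of all 9795 genes were. Hist1h1b lay just short of it, at 160 against 80.4 CPM (0.99, 0.85 to 1.13). In mesonephros 6 of 37 were 2-fold higher and 0 lower, where 0.406% and 1.58% of all 12819 genes were. They were Hist1h1b (1.10), Hist1h1e and Hist1h3e of the 15 most counted members, with Hist2h2bb, Hist1h3i and Hist1h2af. Hist1h1a, at 28.1 against 14.3 CPM, and Hist1h1d, at 13.02 against 6.52 CPM, lay just short of 2-fold, but Hist1h1c read 18.3 against 19.9 CPM (-0.12, -0.28 to 0.04). H1 members together were 0.99 higher (0.95 to 1.03), H2A members 0.09 (0.04 to 0.14).

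Depth, sex, breeding and cell filtering all separate these 2 samples, and their parts cannot be told apart. Cells of 3000 to 10000 UMIs in mesonephros read 852 CPM in the XX control (816 to 890, 313 cells) and 541 in the XY control (533 to 549, 7511 cells). Shallow cells of the XY control read higher than deep ones, with 606 CPM under 3000 UMIs and 530 from 6000 to 10000 in mesonephros. In pre-supporting cells only 25 XX cells fell in that window, at 902 CPM (762 to 1061) against 399 in the XY control. At a matched range of S phase genes over all cells the XX control was 0.54, 0.61 and 0.76 higher in the low, middle and high range. Erythroid markers summed to 210 CPM in mesonephros of the XX control and 524 in the XY control.

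Genes that act on histone mRNA and protein were read from lists. Of 17 genes for transcription and 3′ processing of histone mRNA, all measured in mesonephros, 1 was 2-fold higher in the XY KO at E11.75 than at E11.5, and none of them in another comparison there, nor any of the 16 measured in pre-supporting cells. That is 1 of 17, where 5.77% of all genes measured in mesonephros were 2-fold higher. It was Zfp473, for a zinc finger protein of histone 3′ processing, at 2.97 against 1.45 CPM, named after its values were seen. Slbp, for the protein that binds the stem-loop, read 168, 154, 138 and 169 CPM in mesonephros of the XY control, the XY KO at E11.5, the XY KO at E11.75 and the XX control. Between the KO stages it differed by -0.16 (-0.23 to -0.09). Npat, for the coactivator of histone genes, read 39.8, 35.1, 61.3 and 37.3 CPM and was higher at E11.75 than at E11.5 by 0.80 (0.68 to 0.92), in the direction opposite to the members. In pre-supporting cells Npat differed by 0.70 (0.41 to 1.01). The most counted genes of this list, Snrpe, Snrpf and Snrpb, encode Sm proteins shared with splicing particles, and Snrpe read 753, 877, 584 and 872 CPM. Histone chaperones, which carry histones to DNA, had 0 of 16 past 2-fold in mesonephros and 0 of 15 measured in pre-supporting cells, in each of the 4 comparisons, where between 0.406% and 5.83% of all genes were. Nasp, a chaperone of H1 and H3, read 441, 405, 400 and 488 CPM in mesonephros. Nap1l1, the most counted, read 586, 627, 637 and 689 CPM there, and Dek 368, 402, 332 and 459 CPM. In pre-supporting cells Nap1l1 was above the XY control by 0.39 (0.32 to 0.46) in the XY KO at E11.5. At E11.75 it was above by 0.43 (0.36 to 0.51). Dek was above by 0.23 (0.12 to 0.34) and 0.18 (0.06 to 0.30), whereas both intervals of Nasp held 0.

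Replication-independent variants are made throughout the cycle from ordinary polyadenylated mRNA, and they too were lower at E11.75. The 10 genes summed to 5641 CPM in mesonephros of the XY KO at E11.75 against 8644 at E11.5 (-0.62, -0.63 to -0.60) and 4570 against 7111 CPM in pre-supporting cells (-0.64, -0.66 to -0.61). H2afz, for H2A.Z, went beyond 2-fold in mesonephros, at 984 against 2017 CPM (-1.04, -1.06 to -1.01). In mesonephros H3f3a read 1332 against 2292 CPM (-0.78) and H3f3b 1449 against 2006 CPM (-0.47), both for H3.3. H1f0, the linker histone of cells that leave the cycle, was higher, at 354 against 250 CPM (0.50, 0.45 to 0.55). At E11.5 the variants hardly differed between XY KO and XY control, at 8644 against 8488 CPM (0.03). Of the 39 S phase genes none was past 2-fold in mesonephros in the 4 comparisons, nor any of the 31 to 36 measured in pre-supporting cells. Between 0.406% and 5.83% of all genes were, by comparison and direction. The sum of the S phase genes differed between the KO stages by -0.04 in mesonephros and 0.06 in pre-supporting cells. Single genes went both ways within these sums. Of the 3 most counted, Tyms differed in mesonephros by -0.67 (-0.75 to -0.59), Atad2 by 0.29 (0.23 to 0.36) and Rrm1 by -0.07 (-0.15 to 0.01). The 52 G2/M genes had sums that differed by -0.04 and -0.05, with 1 of 35 measured genes, Birc5, 2-fold lower in pre-supporting cells (28.5 against 59.7 CPM), where 0.957% of all genes were. Against the XY control the XY KO at E11.75 had 3 of 38 measured genes 2-fold lower in pre-supporting cells, Birc5, Cks2 and Cdc20, where 1.7% of all genes were, and the sum differed by -0.20 (-0.24 to -0.17). In the other comparisons there, and in all 4 in mesonephros, no G2/M gene was past 2-fold. Of all genes, between 0.406% and 5.77% were. The 3 most counted G2/M genes also went both ways between the KO stages in mesonephros. Hmgb2 differed by -0.40 (-0.43 to -0.37), Cbx5 by 0.35 (0.31 to 0.39) and Top2a by 0.24 (0.20 to 0.28).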

How the data were processed

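Gonads with mesonephros were methanol fixed and profiled with the 10x 3′ chemistry. Per the labels the authors counted reads with Cell Ranger 6.1.1 against mm10, and they deposited UMI counts for each gene and cell, which were whole numbers. Per the study's methods the authors filtered XY cells by mitochondrial and globin content and below 30000 UMIs, filtered XX cells by cluster, removed doublets and named cells after integration, which left the counts whole. For each sample and cell type UMIs were added up and divided by the total of all genes (CPM). Intervals are exact Poisson (levels) or from the exact binomial distribution (log2 ratios, prior count 0.5), at 95%. A gene was measured with at least 100 UMIs over both samples. Python 3.11.15, numpy 2.4.6, scipy 1.17.1 and edgeR 4.0.16 (R 4.3.3, TMM factors as an alternative) were used, and the fold calls were tested on simulated data. The members, lists and alternatives were chosen with earlier results of these data known. Named were the 15 members with the most UMIs, members past 2-fold in pre-supporting cells and the 3 highest and 3 lowest by S phase ratio. Of other lists, apart from the erythroid markers, the 3 most counted genes were named with Slbp, Npat and H1f0.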

Additional observations from a re-analysis of the deposited data

How the results depend on the processing

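Values below are log2 ratios of the summed histone level unless said otherwise. They are in the order KO at E11.5, KO at E11.75 and XX control, each over the XY control, and KO at E11.75 over KO at E11.5. No paired analysis was possible because each group was 1 sample, and a spread between embryos was not measured. Changes within counting error are not listed.

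In pre-supporting cells TMM factors gave -0.00030, -0.76, 0.54 and -0.76, and totals that left out Gm42418 and the globin, ribosomal protein and mitochondrial genes gave -0.0016 for the first. The XX value was 1.18 in cells with 3000 to 10000 UMIs, 0.29 without Hist1h1b, 0.37 between first runs and 0.56 between second runs. In mesonephros TMM factors gave 0.16, -0.51, 0.68 and -0.67. Totals without those genes gave 0.087 for the first and -0.46 for the last. Cells with 3000 to 10000 UMIs gave 0.089 for the first and 0.66 for the XX value, and cells under 30000 UMIs 0.60 for the latter. Without Hist1h1b the values were 0.021, -0.29, 0.35 and -0.31. Members on chromosome 13 alone gave 0.62 for the XX value. First runs gave -0.024, which reversed the first value, -0.44 and 0.44, and second runs 0.16, -0.25 and 0.70, where the KO at E11.75 entered with its single run each time. The cause was not tested.

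Counts of members past 2-fold in pre-supporting cells, higher and lower, rested on the minimum count. Without a minimum they were 6 and 4, 2 and 16, 10 and 4, and 2 and 16 of 60 or 61 members in the same order, where 7.92% and 13.9%, 12.2% and 12.9%, 9.04% and 11.76%, and 16.8% and 9.25% of all genes were past 2-fold. A minimum of 50 UMIs gave 1 lower in the first (3.01% of all genes) and 1 higher and 1 lower in the XX comparison (0.806% and 2.26%), and one of 500 UMIs gave 0 lower in both E11.75 comparisons, since fewer members were measured. At 1.5-fold there were 1 higher and 2 lower in the first (2.7% and 7.81%), 5 higher and 1 lower in the XX (1.98% and 8.11%) and 3 lower in the last comparison (5.04%). In the XX comparison 1 was higher with TMM factors (0.613%), 1 with the reduced totals (0.582%), 2 in cells under 30000 UMIs (0.368%) and 3 in cells with 3000 to 10000 UMIs (2.33%). In the last 2 were lower with TMM factors (2.82%).

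Between high and low S phase range, in the XY control, the XY KO at E11.5, the XY KO at E11.75 and the XX control, thinning to 2000 UMIs gave 0.27, 0.28, 0.44 and 0.46, and thinning to 5000 UMIs 0.59, 0.60, 0.80 and 0.66. Mesonephros alone gave 0.34, 0.55 and 0.48 in the last 3. Pre-supporting cells alone gave 0.086 and 0.14 in the XY control and the XY KO at E11.75, and -0.16 in the XY KO at E11.5. The last has the reverse sign, on 91 UMIs in the high range. The intervals of low and high range overlapped in each of these samples, so no reversal can be read from it. Members at least 2-fold higher in the high range numbered 3, 3 and 2 of 12 with 5000 UMIs in the XY control, the XY KO at E11.5 and the XX control, where 2.89%, 2.1% and 3.13% of all genes were. In the XY KO at E11.75 they numbered 2 of 12 with 2000 UMIs (2.21% of all genes) and 1 of 8 in mesonephros (2.08%), and in the XX control 1 of 8 in mesonephros (2.16%).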
